A study of Homo sapiens with 10 samples.

Results

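The genes described here encode the machinery that moves proteins through cilia and the motors that bend them, measured in HEK-293 cells. They were chosen by gene symbol, with earlier results of these data known: every gene whose symbol on the array starts with IFT, BBS, DNAH, DNAI or DNAL followed by a digit, DNALI1, and every symbol starting with DYNC2, TCTN or NPHP. The rule found 55 of the 18404 genes that had a probe set with a single gene symbol. Of these, 18 were intraflagellar transport (IFT) genes, 8 BBS genes, 4 dynein-2 genes, 3 tectonics, 1 nephrocystin (NPHP4) and 21 axonemal dynein genes. Where a gene had several probe sets, the one that read highest on average across the 10 arrays was used, which concerned 6 of the 55.

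A cilium is a microtubule-based projection built and kept by transport along its own microtubules. IFT-B trains are carried to the tip by kinesin-2, IFT-A trains with dynein-2 return cargo to the base, and the BBSome, a coat of BBS proteins, links membrane proteins to the trains. Tectonics and nephrocystins belong to the transition zone, the gate at the ciliary base. Axonemal dyneins, large motors of the outer and inner arms, drive beating in motile cilia and sperm tails, and cells of kidney origin such as HEK-293 are known for the single, immotile primary cilium instead.

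HEK-293 cells are an established line from human embryonic kidney that also expresses neuronal genes. The cells were transfected with MISSION siRNA duplexes through RNAiMAX, and 48 hours later TRIzol total RNA was converted to biotin-labelled cRNA and hybridised to Affymetrix arrays. There were 5 groups of 2 arrays. Cells received LOC440173 siRNA 1 at 10 nM, LOC440173 siRNA 2 at 10 nM or a negative control siRNA at 10 nM, and others PAXIP1-AS1 siRNA at 100 nM or the negative control siRNA at 100 nM. LOC440173 and PAXIP1-AS1 are long non-coding RNAs. All groups share the cell line, the transfection reagent and the time, and no untransfected cells were analysed here. The labels call the 2 arrays of a group biological replicates but give no separate cultures, so the p-values measure the spread between these samples, which may be technical. PAXIP1-AS1 was targeted with a single siRNA, and its target and its dose cannot be told apart when its arrays are set against those of the LOC440173 siRNAs.

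Values are deposited log2 levels, so a difference of 1 is a doubling, and a level is compared between arrays for the same probe set. Between genes, levels are used only to split them at the median level of all genes, a rough division. Array medians lay between 7.06 and 7.12 (siRNA 1 held the highest of the 10, 7.12 and 7.11), and replicates correlated at 0.994 to 0.997 (Pearson's r across genes, which are not independent replicates). The target LOC440173, listed as LINC02893, read 7.72 and 7.43 with siRNA 1, 6.71 and 6.59 with siRNA 2 and 8.47 and 8.60 in the 10 nM controls, 51.4% and 27.0% of control. The level of PAXIP1-AS1 itself was not analysed here. Of 11 measured markers listed for HEK-293, 7 lay at or above the median level of all genes (7.66), the measure used to split dim from bright genes, among them VIM, NEFL, INA and CDH2. The same held for 2 of 12 multiciliated cell markers (CAPS and TUBB4B), 1 of 8 fibroblast and endothelial markers (COL1A1), 0 of 5 blood and 0 of 6 hepatocyte markers.

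Across the 55 genes, siRNA 1 moved more upward than downward, siRNA 2 moved some up and some down, and PAXIP1-AS1 siRNA moved few. A gene was called when its adjusted p in a limma fit of all 10 arrays and 18404 genes was below 0.05. With siRNA 1, 26 of 55 were called (47.3%, against 28.8% of all genes), 22 higher (12.1% of all genes) and 4 lower (16.7%), and their median log2 fold change was 0.21, against 0.05 over all genes. With siRNA 2, 19 were called (34.5%, against 30.0%), 11 higher (12.5% of all genes) and 8 lower (17.4%), with a median of 0.08 against 0.01. Without 10 nM control replicate 1 the siRNA 2 median was 0.037 against 0.041 over all genes, and without siRNA 2 replicate 2 it was 0.040 against 0.042. With PAXIP1-AS1 siRNA, 4 were called (7.27%, against 4.62%), 0 higher (2.86% of all genes) and 4 lower (1.76%), with a median of -0.04 against -0.01. A called change of at least 0.5 on the log2 scale was made by 9 of the 55 with siRNA 1 (8.0% of all genes), by 3 with siRNA 2 (9.17%) and by 1 with PAXIP1-AS1 siRNA (1.02%). The shares called with siRNA 2 and with PAXIP1-AS1 siRNA lay near those of all genes. The contrasts of siRNA 1 and siRNA 2 share their 2 control arrays, so the values of each are given side by side.

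**Figure D1:**
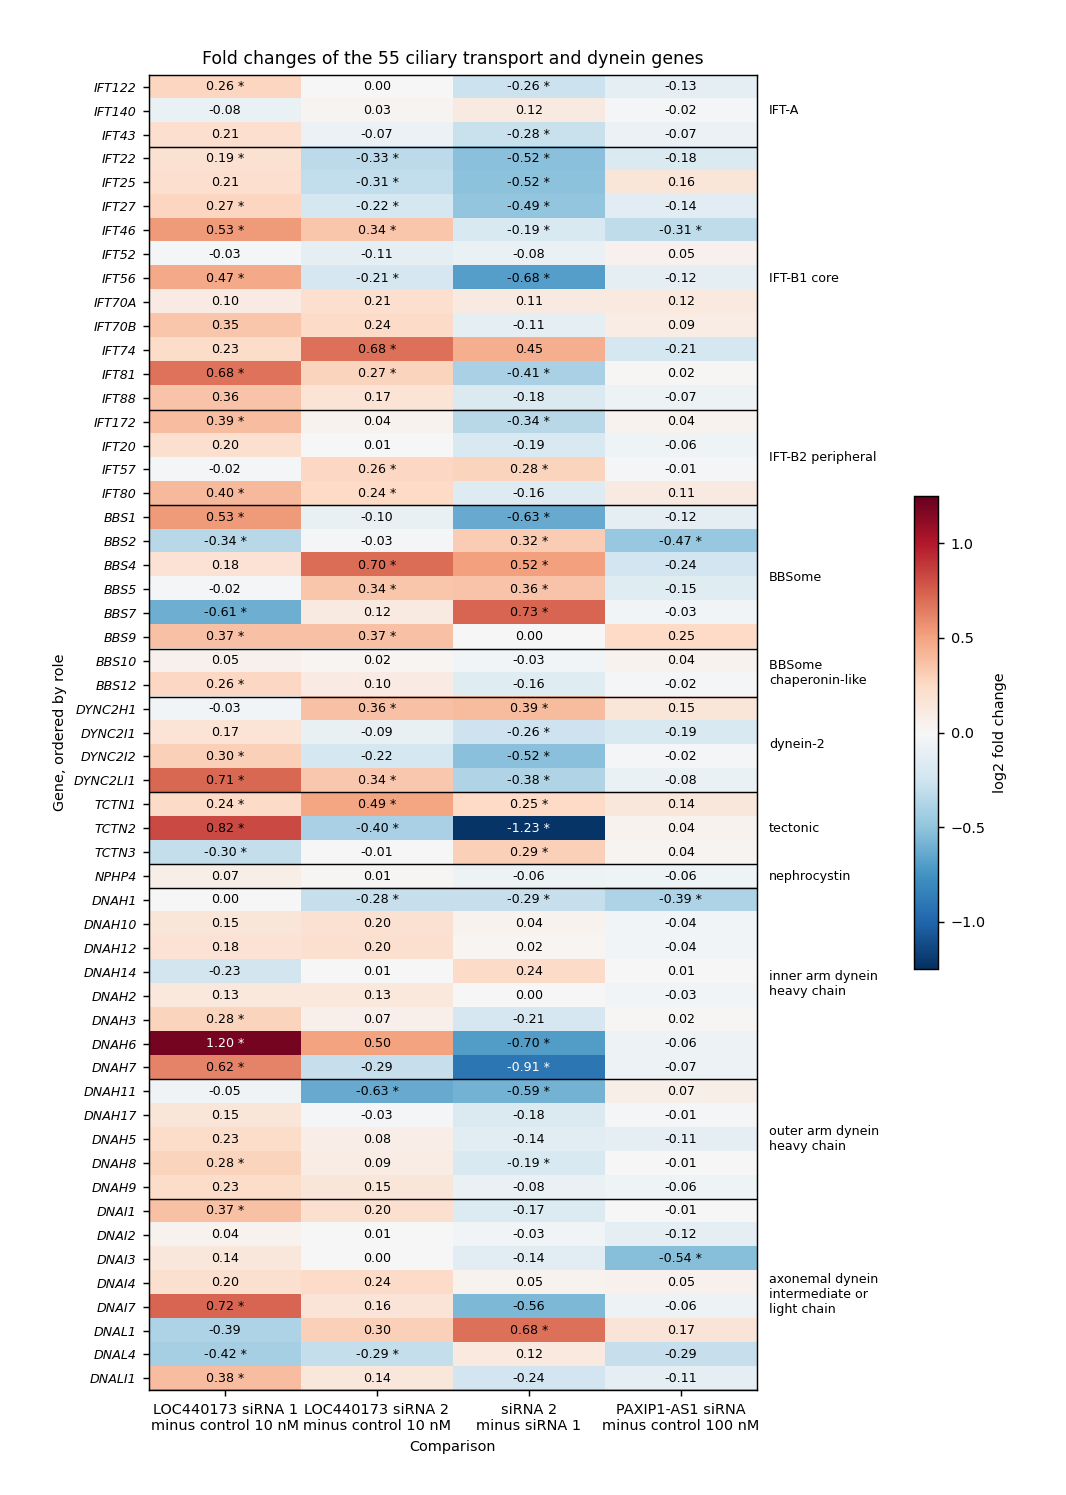
log2 fold changes of the 55 genes (rows, ordered by role) in 4 comparisons (columns), with the value printed in each cell and an asterisk where limma's adjusted p is below 0.05. The siRNA 1 column holds 22 higher and 4 lower calls, the siRNA 2 column 11 and 8, the siRNA 2 minus siRNA 1 column 9 and 19, and the PAXIP1-AS1 column 0 and 4.

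Calls depended on brightness and on single arrays. Among the 30 genes of the 55 at or above the median level, 17 were called with siRNA 1 (56.7%, against 43.8% of all genes there) and 16 with siRNA 2 (53.3%, against 47.1%). Among the 25 dimmer ones, 9 were called with siRNA 1 (36.0%, against 13.8%) and 3 with siRNA 2 (12%, against 12.8%). All dim genes had a median of 0.10 with siRNA 1 and all bright genes -0.02, while the dim and bright genes among the 55 had 0.20 and 0.21. After a further quantile normalization of the arrays these medians were 0.04 for all dim genes and 0.01 for all bright genes, against 0.14 and 0.25 among the 55. The siRNA 1 count was 16 without siRNA 1 replicate 2. The siRNA 2 count was 12 without 10 nM control replicate 1, 10 without siRNA 2 replicate 2 and 6 when only the compared groups entered the fit, namely BBS4, IFT22, IFT46, DNAH11, TCTN1 and TCTN2. In such a fit siRNA 1 lost BBS12, DNAH3, DYNC2I2, IFT22, IFT27, IFT122 and TCTN1 (adjusted p = 0.0514 to 0.104). With every single array left out in turn, 14 of the 26 siRNA 1 calls and 8 of the 19 siRNA 2 calls were kept each time. No share of all genes is given for these settings, so whether such losses are particular to the 55 genes cannot be told here. In bulk RNA, fewer cells with a transcript and less of it per cell cannot be told apart.

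Cilium genes are known targets of RFX transcription factors, which bind the X-box. The letters GTNNCC, any 3 bases and GNAAC were searched on both strands of the 250 bases before each RefSeq gene start (GRCh38.p14), where 49 of the 55 genes had at least 1 window (56 windows in all). They were present for 7 of those 49 (14.3%), against 656 of 27305 genes in the table (2.40%) and 407 of the 14230 measured on these arrays (2.86%). On the other strand they read GTTNC, any 3 bases and GGNNAC, and DNAH1 holds letters that match both ways. The match describes letters, not binding. The matching genes were DNAH1, DNAH2, DNAH11, DNAH12, DNALI1, IFT56 and IFT57. The RefSeq sequence is shown for the 5 of these called with a LOC440173 siRNA, because the same letters stood before genes that rose and genes that fell. Each runs 5′ to 3′ on the gene's strand, with the matched letters in capitals and up to 40 bases on either side, none past the gene start. They lie, in order, IFT56 at chr7:139133724-139133777 (+ strand), IFT57 at chr3:108222425-108222494 (- strand), DNAH1 at chr3:52316174-52316267 (+ strand), DNAH11 at chr7:21542971-21543038 (+ strand) and DNALI1 at chr1:37556883-37556939 (+ strand).
IFT56: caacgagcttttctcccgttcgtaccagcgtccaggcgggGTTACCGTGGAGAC
IFT57: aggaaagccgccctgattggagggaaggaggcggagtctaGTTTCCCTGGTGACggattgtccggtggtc
DNAH1: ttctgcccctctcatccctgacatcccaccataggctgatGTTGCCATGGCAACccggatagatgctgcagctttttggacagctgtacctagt
DNAH11: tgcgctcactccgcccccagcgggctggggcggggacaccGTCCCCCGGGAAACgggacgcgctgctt
DNALI1: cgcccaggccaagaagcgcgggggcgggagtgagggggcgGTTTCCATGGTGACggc

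Calls among the genes with these letters went both ways across the siRNAs. Of all genes, 28.8% were called with siRNA 1, 30.0% with siRNA 2 and 4.62% with PAXIP1-AS1 siRNA. With siRNA 1, 2 of the 7 were higher (IFT56 and DNALI1) and 0 lower, against 16 higher and 4 lower of the 42 genes with a window and no match. With siRNA 2, 1 was higher (IFT57) and 3 lower (IFT56, DNAH1 and DNAH11), against 9 higher and 3 lower of the 42. With PAXIP1-AS1 siRNA, 0 were higher and 1 was lower (DNAH1), against 0 and 3. Several of these calls were lost without at least 1 array. They were those of IFT56 and IFT57 with siRNA 2, DNALI1 with siRNA 1 and DNAH1 with PAXIP1-AS1 siRNA. RFX3 and RFX2 themselves rose with siRNA 2. RFX3, a factor required for cilium formation in mice, read 7.38 and 7.29 with siRNA 2 and 6.54 and 6.88 in the 10 nM controls, a fold change of 0.62 (SE 0.125, adjusted p = 0.00659). RFX2 read 7.69 and 7.56 with siRNA 2 and 7.27 and 7.07 in the 10 nM controls, a fold change of 0.46 (SE 0.0923, adjusted p = 0.00703). In both genes the siRNA 2 arrays lay above the control arrays. With siRNA 1 the 2 genes had 0.26 and 0.20, neither called.

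Of the 11 genes of the IFT-B1 core, the part of the train that binds cargo, 5 were higher and 0 lower with siRNA 1, and 3 were higher and 4 lower with siRNA 2. The shares called, 45.5% and 63.6%, stand beside 28.8% and 30.0% of all genes, and beside 43.8% and 47.1% of all genes at or above the median level. IFT81, which with IFT74 forms the tubulin-binding module, read 8.60 and 8.41 with siRNA 1, 8.02 and 8.18 with siRNA 2 and 7.77 and 7.88 in the 10 nM controls. These 3 groups did not overlap, with siRNA 1 above siRNA 2 and siRNA 2 above the controls. The log2 fold change was 0.68 (SE 0.0844, adjusted p = 0.000742) with siRNA 1, a 1.60-fold rise, and 0.27 (SE 0.0844, adjusted p = 0.0419) with siRNA 2. IFT46, which in the green alga Chlamydomonas carries outer arm dyneins into the flagellum, read 11.31 and 11.34 with siRNA 1, 11.12 and 11.15 with siRNA 2 and 10.75 and 10.84 in the 10 nM controls. Again siRNA 1 lay above siRNA 2 and both above the controls on every array. IFT46 changed by 0.53 (SE 0.0539, adjusted p = 0.000287) with siRNA 1 and 0.34 (SE 0.0539, adjusted p = 0.00204) with siRNA 2. IFT74, the partner of IFT81, read 8.04 and 8.01 with siRNA 1, 8.35 and 8.60 with siRNA 2 and 7.57 and 8.02 in the 10 nM controls. Both siRNA 2 arrays lay above all others, while the siRNA 1 arrays overlapped the controls, whose 2 arrays differed by more than those of either siRNA. Its fold change was 0.68 (SE 0.154, adjusted p = 0.0113) with siRNA 2, a 1.61-fold rise, and 0.23 (adjusted p = 0.296) with siRNA 1. The siRNA 2 call was lost without siRNA 2 replicate 2 for IFT74 (adjusted p = 0.0711), and without either 10 nM control array, siRNA 2 replicate 2, either 100 nM control array or either PAXIP1-AS1 siRNA array for IFT81 (adjusted p = 0.0573 to 0.202).

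**Figure D2:**
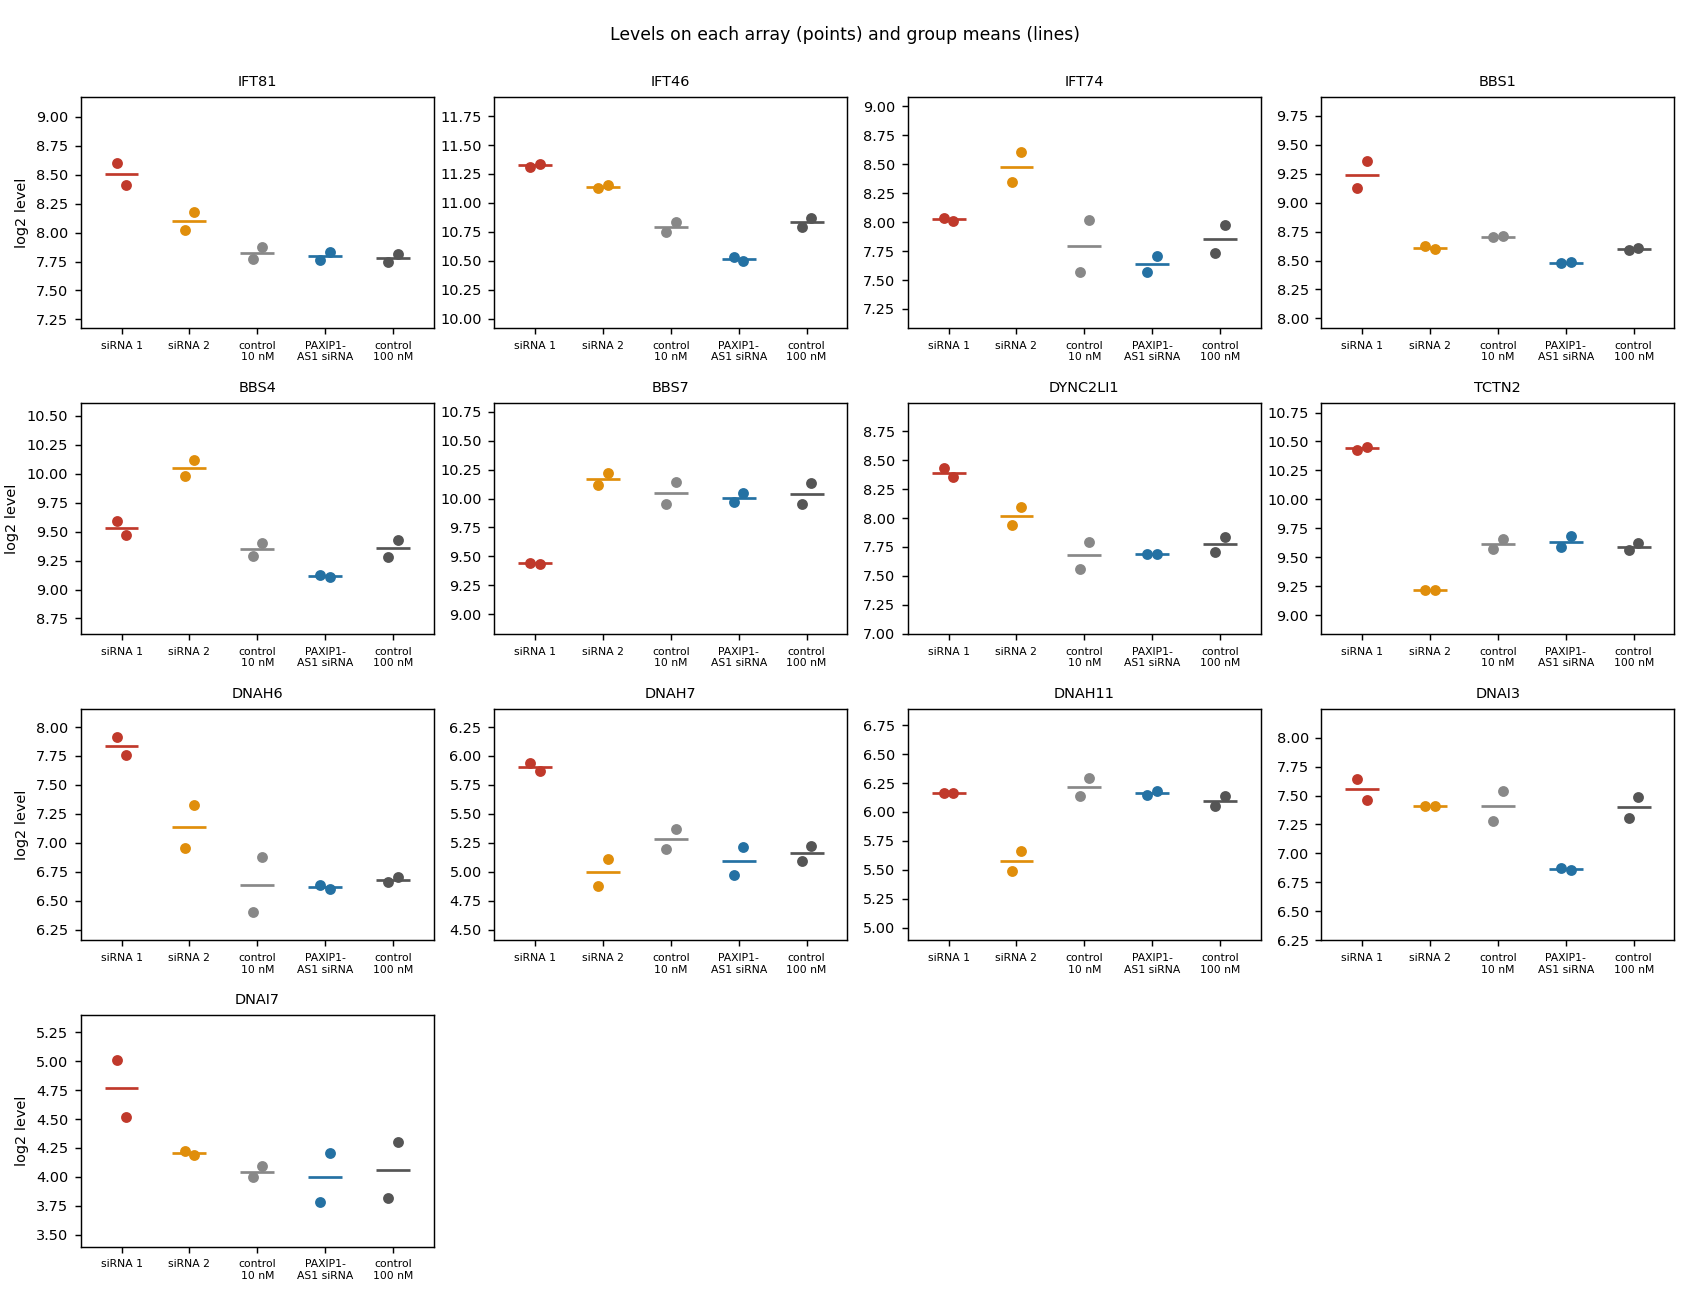
Levels (y axis, log2; each panel spans 2 log2 units around its own gene) of 13 genes on each array (points) with group means (lines), for LOC440173 siRNA 1, LOC440173 siRNA 2, the 10 nM controls, PAXIP1-AS1 siRNA and the 100 nM controls. IFT81, IFT46 and DYNC2LI1 run downward over the first 3 groups, BBS4 and IFT74 peak with siRNA 2, BBS7 is lowest with siRNA 1, DNAH11 with siRNA 2 and DNAI3 with PAXIP1-AS1 siRNA.

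IFT22, IFT27 and IFT56 were called in opposite directions with the LOC440173 siRNAs. IFT56, known in Chlamydomonas for importing motility proteins and one of the genes with the X-box letters, read 9.41 and 9.41 with siRNA 1, 8.70 and 8.75 with siRNA 2 and 8.88 and 9.0 in the 10 nM controls. The siRNA 1 arrays lay above and the siRNA 2 arrays below every control array. Its fold change was 0.47 (SE 0.0657, adjusted p = 0.00133) with siRNA 1 and -0.21 (SE 0.0657, adjusted p = 0.0413) with siRNA 2. IFT27, a small GTPase-like subunit known to help the BBSome leave the cilium, read 8.70 and 8.77 with siRNA 1, 8.24 and 8.24 with siRNA 2 and 8.48 and 8.45 in the 10 nM controls. IFT22, also a small GTPase-like subunit, read 9.89 and 9.90 with siRNA 1, 9.39 and 9.35 with siRNA 2 and 9.68 and 9.72 in the 10 nM controls. For both genes siRNA 1 lay above and siRNA 2 below the controls on every array. The fold changes with siRNA 1 were 0.27 (adjusted p = 0.00969) for IFT27 and 0.19 (adjusted p = 0.0413) for IFT22. With siRNA 2 they were -0.22 (adjusted p = 0.0211) for IFT27 and -0.33 (adjusted p = 0.00343) for IFT22. IFT25, the binding partner of IFT27, was lower with siRNA 2, at -0.31 (adjusted p = 0.0217), and had 0.21 (adjusted p = 0.0907) with siRNA 1. Calls with siRNA 2 were lost without 10 nM control replicate 1 or either siRNA 2 array for IFT27 (adjusted p = 0.0733 to 0.0812), and without 10 nM control replicate 2 or siRNA 2 replicate 1 for IFT25 (adjusted p = 0.103 to 0.120), and without 10 nM control replicate 2, either siRNA 1 array, either siRNA 2 array or either PAXIP1-AS1 siRNA array for IFT56 (adjusted p = 0.0686 to 0.182). Those with siRNA 1 were lost without siRNA 1 replicate 2 for IFT27 (adjusted p = 0.0715), and without either 10 nM control array, either siRNA 1 array, either siRNA 2 array or either 100 nM control array for IFT22 (adjusted p = 0.0518 to 0.144). After a further quantile normalization the siRNA 2 calls of IFT27 and IFT56 were also lost (adjusted p = 0.0940 and 0.0522).

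The other IFT-B1 genes, IFT52, IFT70A, IFT70B and IFT88, were called with no siRNA. IFT88, a core subunit whose loss prevents cilium formation in mice, read 7.12 and 6.92 with siRNA 1, 6.64 and 7.04 with siRNA 2 and 6.49 and 6.84 in the 10 nM controls. The siRNA 1 and control arrays did not overlap, yet its fold change of 0.36 (95% interval -0.02 to 0.73, adjusted p = 0.145) did not pass. IFT70A and IFT70B are near-identical genes, so their probe sets may share signal. Their siRNA 1 values were 0.10 and 0.35, and IFT52 had -0.03.

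In IFT-B2, the peripheral part that contacts the kinesin, IFT172 and IFT80 were higher with siRNA 1, and IFT80 and IFT57 with siRNA 2. IFT172, the largest IFT-B subunit, read 9.01 and 8.91 with siRNA 1, 8.57 and 8.66 with siRNA 2 and 8.59 and 8.56 in the 10 nM controls. The siRNA 1 arrays stood above the controls, and the siRNA 2 arrays overlapped them. Its fold change was 0.39 (SE 0.0566, adjusted p = 0.00163) with siRNA 1 and 0.04 (adjusted p = 0.629) with siRNA 2. IFT80, whose variants cause a skeletal ciliopathy, had 0.40 (adjusted p = 0.00178) with siRNA 1 and 0.24 (adjusted p = 0.0162) with siRNA 2. IFT57, a kinesin-contacting subunit, had 0.26 (adjusted p = 0.0368) with siRNA 2 and -0.02 (adjusted p = 0.847) with siRNA 1. IFT20, which also works at the Golgi, was not called, with 0.20 and 0.01. Here the siRNA 2 call was lost without 10 nM control replicate 1 or siRNA 2 replicate 2 for IFT80 (adjusted p = 0.0800 to 0.0820), and without 10 nM control replicate 1, either siRNA 1 array, siRNA 2 replicate 2 or either PAXIP1-AS1 siRNA array for IFT57 (adjusted p = 0.0576 to 0.189).

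The 3 IFT-A genes that carry an IFT symbol gave 1 call. IFT122, a core subunit, read 8.70 and 8.67 with siRNA 1, 8.41 and 8.43 with siRNA 2 and 8.46 and 8.38 in the 10 nM controls. Its siRNA 1 arrays lay above all others, and its fold change was 0.26 (adjusted p = 0.0157) with siRNA 1 and 0.00 (adjusted p = 0.999) with siRNA 2. IFT43 had 0.21 and -0.07, and IFT140 had -0.08 and 0.03. The IFT122 call was lost without 10 nM control replicate 2 or either siRNA 1 array (adjusted p = 0.0648 to 0.0861). The 3 IFT-A subunits listed under other symbols had 2 called higher and 0 lower (66.7%, median 0.38) with siRNA 1 and 1 called higher and 0 lower (33.3%, median -0.07) with siRNA 2. WDR35 read 9.03 and 8.99 with siRNA 1, 9.04 and 9.07 with siRNA 2 and 8.49 and 8.56 in the 10 nM controls, and was higher with siRNA 1 by 0.48 (adjusted p = 0.00196), with siRNA 2 by 0.53 (adjusted p = 0.00111) and with PAXIP1-AS1 siRNA by 0.40 (adjusted p = 0.0246). The third of these calls was lost without either siRNA 1, 100 nM control or PAXIP1-AS1 siRNA array. WDR19 was higher with siRNA 1, by 0.38 (adjusted p = 0.00457), and had -0.07 with siRNA 2.

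The 8 BBS genes split by siRNA. BBS1, BBS9 and BBS12 were higher and BBS2 and BBS7 lower with siRNA 1, while BBS4, BBS5 and BBS9 were higher and 0 lower with siRNA 2. That is 62.5% and 37.5% of them, against 28.8% and 30.0% of all genes. Of the 8, 7 lay at or above the median level, where 43.8% and 47.1% of all genes were called. BBS1, the BBSome subunit that binds the GTPase ARL6, read 9.12 and 9.36 with siRNA 1, 8.63 and 8.60 with siRNA 2 and 8.71 and 8.71 in the 10 nM controls. Its siRNA 1 arrays stood above every other array. The log2 fold change of BBS1 was 0.53 (SE 0.0738, adjusted p = 0.00128) with siRNA 1 and -0.10 (adjusted p = 0.410) with siRNA 2. BBS7, a propeller subunit of the BBSome core, read 9.44 and 9.44 with siRNA 1, 10.12 and 10.22 with siRNA 2 and 9.95 and 10.15 in the 10 nM controls. The siRNA 1 arrays lay below every other array, and siRNA 2 overlapped the controls. Its fold change was -0.61 (SE 0.0871, adjusted p = 0.00147) with siRNA 1, a 1.52-fold fall, and 0.12 (adjusted p = 0.391) with siRNA 2. BBS4, which binds the satellite protein PCM1, read 9.59 and 9.47 with siRNA 1, 9.98 and 10.12 with siRNA 2 and 9.29 and 9.41 in the 10 nM controls. Both siRNA 2 arrays stood above all others, and the siRNA 1 arrays also lay above the controls. Its fold change was 0.70 (SE 0.0790, adjusted p = 0.000392) with siRNA 2, a 1.63-fold rise, and 0.18 (adjusted p = 0.124) with siRNA 1.

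BBS2, a core partner of BBS7 and BBS9, read 8.92 and 8.97 with siRNA 1, 9.25 and 9.28 with siRNA 2 and 9.27 and 9.31 in the 10 nM controls. Both siRNA 1 arrays lay below those of siRNA 2 and the controls. Its fold change was -0.34 (SE 0.0504, adjusted p = 0.00165) with siRNA 1 and -0.03 with siRNA 2. BBS9 read 8.99 and 9.03 with siRNA 1, 8.94 and 9.09 with siRNA 2 and 8.54 and 8.75 in the 10 nM controls, and both siRNA groups lay above the controls, at 0.37 (adjusted p = 0.0130) and 0.37 (adjusted p = 0.0122). BBS5, the phosphoinositide-binding subunit, was higher with siRNA 2, at 0.34 (adjusted p = 0.0176), and had -0.02 with siRNA 1. BBS10 and BBS12 are chaperonin-like proteins that help assemble the BBSome. BBS12 had 0.26 (adjusted p = 0.0201) with siRNA 1, and BBS10 was not called, at 0.05 and 0.02. With siRNA 2 the call was lost without 10 nM control replicate 1 or siRNA 2 replicate 2 for BBS9 (adjusted p = 0.0595 to 0.0757) and BBS5 (adjusted p = 0.0841 to 0.0971). With siRNA 1 it was lost without 10 nM control replicate 1 or either siRNA 1 array for BBS9 (adjusted p = 0.0511 to 0.0755), and without either 10 nM control array or siRNA 1 replicate 2 for BBS12 (adjusted p = 0.0603 to 0.127). BBS12 also lost its call after a further quantile normalization, which took its fold change to 0.18 (adjusted p = 0.125).

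Dynein-2 is the motor that returns trains to the ciliary base. Of its 4 genes, the light intermediate chain DYNC2LI1 was higher with both LOC440173 siRNAs, reading 8.43 and 8.36 with siRNA 1, 7.94 and 8.09 with siRNA 2 and 7.56 and 7.79 in the 10 nM controls. The 3 groups did not overlap, with siRNA 1 uppermost. The fold change was 0.71 (SE 0.0908, adjusted p = 0.000836) with siRNA 1, a 1.64-fold rise, and 0.34 (SE 0.0908, adjusted p = 0.0240) with siRNA 2. The motor subunit DYNC2H1 read 9.95 and 9.91 with siRNA 1, 10.28 and 10.38 with siRNA 2 and 9.90 and 10.03 in the 10 nM controls. Its siRNA 2 arrays stood above the controls and its siRNA 1 arrays between them. The fold change was 0.36 (SE 0.0741, adjusted p = 0.00726) with siRNA 2 and -0.03 with siRNA 1. The other DYNC2H1 probe set gave 0.26 with siRNA 2 and was not called. The intermediate chain DYNC2I2 had 0.30 (adjusted p = 0.0373) with siRNA 1 and -0.22 (adjusted p = 0.0960) with siRNA 2, and DYNC2I1 had 0.17 (adjusted p = 0.0628) and -0.09 (adjusted p = 0.319). In the siRNA 2 comparison the call was lost without 10 nM control replicate 1 or siRNA 2 replicate 2 for DYNC2LI1 (adjusted p = 0.113 to 0.130). In the siRNA 1 comparison it was lost without 10 nM control replicate 2, either siRNA 1 array, either 100 nM control array or either PAXIP1-AS1 siRNA array for DYNC2I2 (adjusted p = 0.0580 to 0.177).

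At the transition zone, TCTN2 showed the widest spread between the LOC440173 siRNAs among the 55 genes. The tectonics are membrane-associated proteins of the ciliary gate, and TCTN1 and TCTN2 are known for Hedgehog signalling in mice. TCTN2 read 10.43 and 10.46 with siRNA 1, 9.21 and 9.21 with siRNA 2 and 9.57 and 9.66 in the 10 nM controls. Every siRNA 1 array lay above and every siRNA 2 array below every control. The fold change was 0.82 (SE 0.0572, adjusted p = 4.88e-05) with siRNA 1, a 1.77-fold rise, and -0.40 (SE 0.0572, adjusted p = 0.00125) with siRNA 2. TCTN1 read 9.22 and 9.17 with siRNA 1, 9.44 and 9.46 with siRNA 2 and 8.94 and 8.98 in the 10 nM controls. Here siRNA 2 was uppermost and both siRNAs lay above the controls, with 0.24 (adjusted p = 0.0157) with siRNA 1 and 0.49 (adjusted p = 0.000429) with siRNA 2. TCTN3 read 10.74 and 10.73 with siRNA 1, 11.01 and 11.05 with siRNA 2 and 10.99 and 11.08 in the 10 nM controls, lower with siRNA 1 at -0.30 (adjusted p = 0.00424) and at -0.01 with siRNA 2. The nephrocystin NPHP4 was not called, at 0.07 and 0.01. The smaller siRNA 1 call was lost without 10 nM control replicate 1 or siRNA 1 replicate 1 for TCTN1 (adjusted p = 0.0545 to 0.100).

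The 21 axonemal dynein genes were dim, with 20 of them, and 12 of the 13 heavy chains, below the median level of all genes. With siRNA 1, 7 were higher and 1 lower, and with siRNA 2, 0 were higher and 3 lower. The shares called were 38.1% with siRNA 1, against 13.8% of all dim genes, and 14.3% with siRNA 2, near the 12.8% of all dim genes. Of the siRNA 1 calls, only those of DNAH6, DNAH7 and DNAL4 were kept with every array left out. Of the siRNA 2 calls, those of DNAH1 and DNAH11 were. The inner arm heavy chain DNAH6 made the largest rise of the 55 genes with siRNA 1. It read 7.91 and 7.76 with siRNA 1, 6.95 and 7.33 with siRNA 2 and 6.40 and 6.88 in the 10 nM controls. The 3 groups did not overlap, although the 2 control arrays differed by nearly as much as the siRNA 2 arrays stood above them on average. The fold change was 1.20 (SE 0.163, adjusted p = 0.00117) with siRNA 1, a 2.29-fold rise, and 0.50 (95% interval 0.12 to 0.88, adjusted p = 0.0518) with siRNA 2, which did not pass. The siRNA 2 difference passed without 10 nM control replicate 2 (adjusted p = 0.00986) or without siRNA 2 replicate 1 (adjusted p = 0.0278). DNAH6 is measured by 3 further probe sets, and each was fitted on its own, a choice made after seeing the data. With siRNA 1 these gave 0.70, 1.13 and 0.95, all called. With siRNA 2 they gave 0.23, 0.15 and 0.17, none called.

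**Figure D3:**
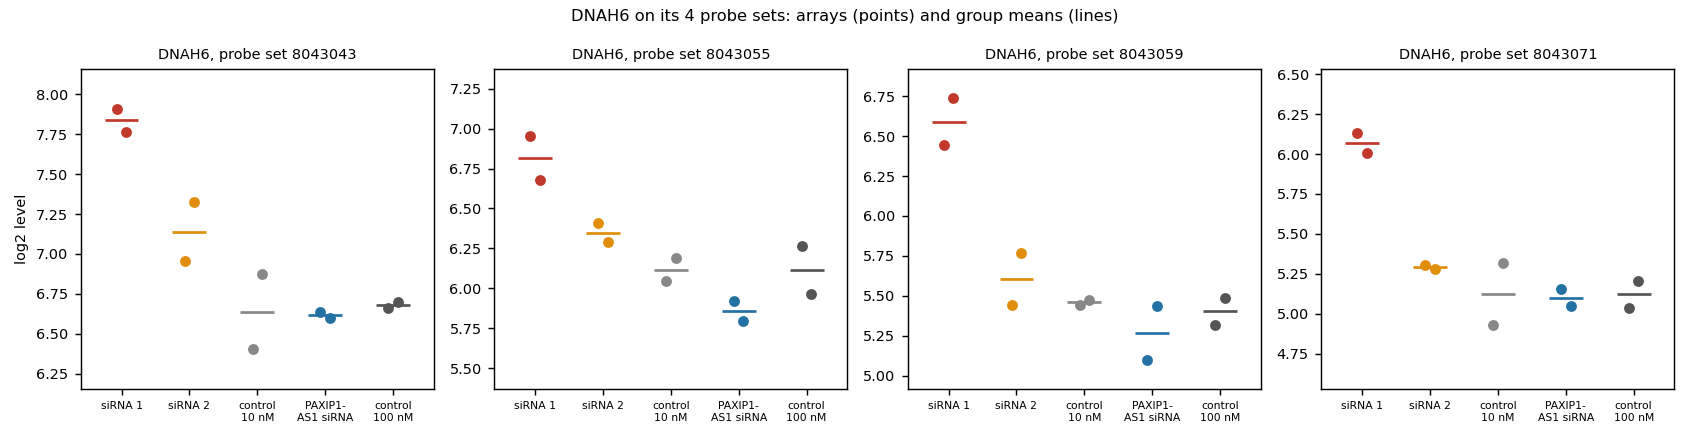
Levels (y axis, log2; each panel spans 2 log2 units) of DNAH6 on its 4 probe sets, for each array (points) with group means (lines) in the 5 groups. On all 4 probe sets both siRNA 1 arrays lie above the 8 other arrays.

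DNAH7, also an inner arm heavy chain, read 5.93 and 5.87 with siRNA 1, 4.88 and 5.11 with siRNA 2 and 5.20 and 5.37 in the 10 nM controls. The siRNA 1 arrays stood above and the siRNA 2 arrays below the controls. DNAH7 differed from control by 0.62 (SE 0.111, adjusted p = 0.00438) with siRNA 1 and -0.29 (95% interval -0.55 to -0.03, adjusted p = 0.0933) with siRNA 2, the second not called. DNAH11, an outer arm heavy chain whose variants cause primary ciliary dyskinesia, read 6.16 and 6.17 with siRNA 1, 5.49 and 5.67 with siRNA 2 and 6.14 and 6.29 in the 10 nM controls. The siRNA 2 arrays lay below all others, with -0.63 (SE 0.0770, adjusted p = 0.000563) and -0.05 with siRNA 1. DNAH1, an inner arm heavy chain needed for sperm movement, read 7.06 and 7.10 with siRNA 1, 6.82 and 6.77 with siRNA 2 and 7.11 and 7.05 in the 10 nM controls, and was lower with siRNA 2, at -0.28 (adjusted p = 0.00721). The remaining heavy chains called with siRNA 1 were DNAH3 at 0.28 (adjusted p = 0.0412) and DNAH8 at 0.28 (adjusted p = 0.0103). DNAH2, DNAH5, DNAH9, DNAH10, DNAH12, DNAH14 and DNAH17 were called with no siRNA, with siRNA 1 values from -0.23 (DNAH14) to 0.23 (DNAH9). Other probe sets of DNAH14 and DNAH17 were called lower with siRNA 1, at -0.49 and -0.43, and another of DNAH10 higher with siRNA 2, at 0.26.

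Among the intermediate and light chains, DNAI7, an inner arm component, read 5.01 and 4.52 with siRNA 1, 4.22 and 4.19 with siRNA 2 and 4.0 and 4.09 in the 10 nM controls. The siRNA 1 arrays were the uppermost and lay further apart than the siRNA 2 pair or the 10 nM control pair, and the fold change was 0.72 (SE 0.211, adjusted p = 0.0360). DNALI1, an inner arm light chain, had 0.38 (adjusted p = 0.0190) with siRNA 1, and DNAI1, an outer arm intermediate chain, 0.37 (adjusted p = 0.0330). DNAL4, a light chain, read 7.29 and 7.34 with siRNA 1, 7.42 and 7.47 with siRNA 2 and 7.78 and 7.69 in the 10 nM controls, below the controls with both siRNAs, at -0.42 (adjusted p = 0.00299) and -0.29 (adjusted p = 0.0134). DNAI2 and DNAI4 were not called, at 0.04 and 0.20 with siRNA 1. Neither was DNAL1, an outer arm light chain, at -0.39 with siRNA 1 and 0.30 with siRNA 2. Among these genes and the heavy chains, the siRNA 1 call was lost without 10 nM control replicate 2 or either siRNA 1 array for DNALI1 (adjusted p = 0.0705 to 0.105) and DNAI1 (adjusted p = 0.0621 to 0.172), and without either 10 nM control array, siRNA 1 replicate 1 or either siRNA 2 array for DNAI7 (adjusted p = 0.0507 to 0.207), and without siRNA 1 replicate 2 for DNAH8 (adjusted p = 0.0757), and without 10 nM control replicate 2, either siRNA 1 array or either PAXIP1-AS1 siRNA array for DNAH3 (adjusted p = 0.0663 to 0.197). That of siRNA 2 was lost without 10 nM control replicate 1 or siRNA 2 replicate 1 for DNAL4 (adjusted p = 0.0677 to 0.0690). The siRNA 1 calls of DNAH3 and DNAI1 were also lost after a further quantile normalization (adjusted p = 0.0685 and 0.0642).

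Beside these dim genes, markers of cell types that such a culture should lack had positive medians with siRNA 1, as had all dim genes (median 0.10, 13.8% called). Of 8 fibroblast and endothelial markers 3 were called higher (median 0.20, array means 5.64 to 5.66 with siRNA 1 and 5.39 to 5.53 in the 10 nM controls). These 3 calls (PECAM1, KDR and COL1A1) were each lost without either siRNA 1 array, which leaves 0. Of 6 hepatocyte markers 1 was called higher, again lost without either siRNA 1 array (median 0.22, array means 5.49 to 5.50 with siRNA 1 and 5.23 to 5.33 in the 10 nM controls), and of 5 blood markers 0 (median 0.14, array means 4.78 to 4.94 with siRNA 1 and 4.71 to 4.87 in the 10 nM controls). Of 12 multiciliated markers 2 were called higher and 1 lower (median 0.06, array means 6.48 to 6.57 with siRNA 1 and 6.35 to 6.46 in the 10 nM controls). With siRNA 2 the multiciliated markers had 0 higher and 3 lower, with array means of 6.25 to 6.31. That is 25.0%, against 30.0% of all genes and 12.8% of all dim genes. The 11 markers listed for HEK-293 had a median of 0.02 with siRNA 1 (array means 8.97 to 9.01, and 9.12 to 9.18 in the 10 nM controls). With siRNA 1, 0 were called higher and 3 lower (27.3%, against 28.8% of all genes and 43.8% of all bright genes). These were NEFL at -1.07 (adjusted p = 3.21e-05), NEFM at -0.77 (adjusted p = 0.000101) and WT1 at -0.56 (adjusted p = 0.00195). With siRNA 2 the HEK-293 markers had 2 called higher and 5 lower, with array means of 9.12 to 9.16. That is 63.6%, against 30.0% of all genes and 47.1% of all bright genes. NEFM was among the higher, at 1.11 (adjusted p = 1.99e-05). NEFL at -0.51 (adjusted p = 0.000819) and WT1 at -0.63 (adjusted p = 0.000958) were among the lower, as with siRNA 1. The part of these movements in the siRNA 1 calls of the axonemal dyneins was not tested.

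Setting siRNA 2 directly against siRNA 1 takes its difference from those 4 arrays, while all 10 arrays set the spread it is tested against. Of the 55 genes, 28 were called (50.9%, against 37.1% of all genes), 9 higher (18.2% of all genes) and 19 lower (19.0%) with siRNA 2, and 12 differed by at least 0.5 (13.9% of all genes). Their median was -0.16, against -0.05 over all genes. Among the genes at or above the median level 22 of 30 were called (73.3%, against 58.2% of all genes there), and among the dimmer ones 6 of 25 (24.0%, against 16.1%). By role, the IFT genes had 1 higher and 9 lower of 18, the BBS genes 4 higher and 1 lower of 8, dynein-2 1 higher and 3 lower of 4, the tectonics 2 higher and 1 lower of 3, and the axonemal dyneins 1 higher and 5 lower of 21.

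**Figure D4:**
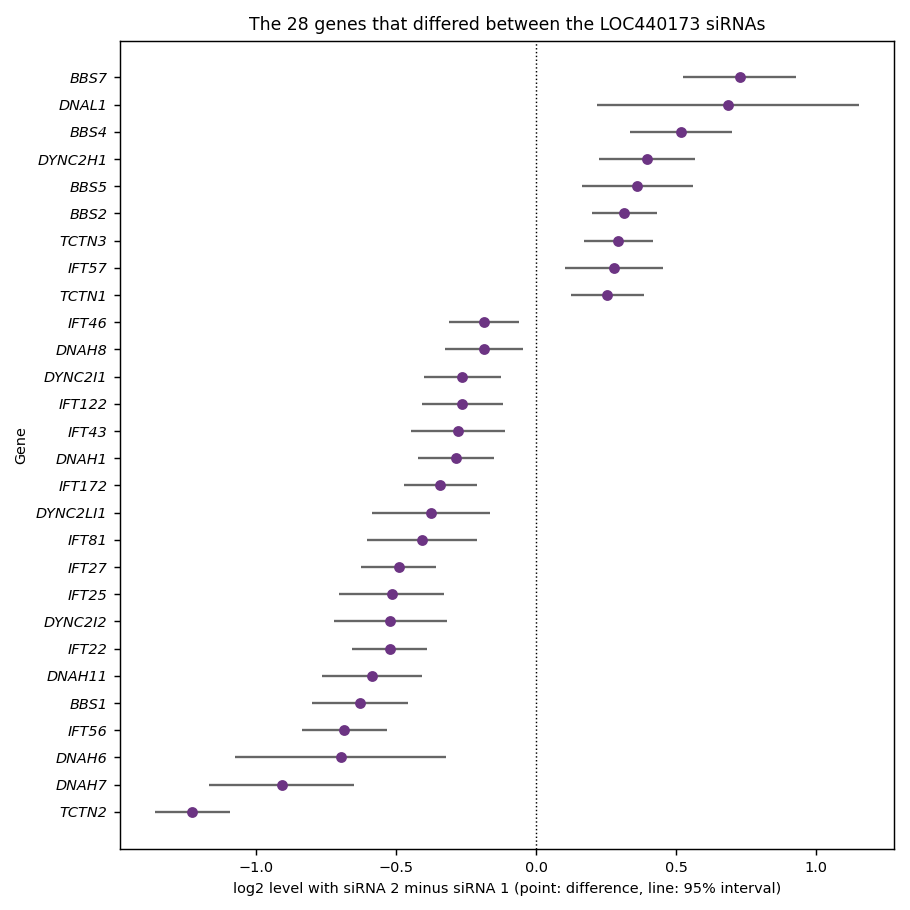
Difference in log2 level, siRNA 2 minus siRNA 1 (x axis; point, difference; line, 95% interval), for the 28 of 55 genes called between these groups (y axis). Of the 28, 19 lie left of 0, led by TCTN2 at -1.23, and 9 right of 0, led by BBS7 at 0.73.

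TCTN2 differed by -1.23 (SE 0.0572, adjusted p = 4.01e-06), DNAH7 by -0.91 (SE 0.111, adjusted p = 0.000374), IFT56 by -0.68 (SE 0.0657, adjusted p = 0.000105) and BBS1 by -0.63 (SE 0.0738, adjusted p = 0.000301). BBS7 differed by 0.73 (SE 0.0871, adjusted p = 0.000333) and BBS4 by 0.52 (SE 0.0790, adjusted p = 0.00121), both higher with siRNA 2. DNAH11 (-0.59, adjusted p = 0.000535), IFT22 (-0.52, adjusted p = 0.000219), IFT25 (-0.52, adjusted p = 0.00134), IFT27 (-0.49, adjusted p = 0.000295), DYNC2I2 (-0.52, adjusted p = 0.00198), IFT81 (-0.41, adjusted p = 0.00576), IFT172 (-0.34, adjusted p = 0.00184) and DNAH1 (-0.29, adjusted p = 0.00532) were lower with siRNA 2. DYNC2H1 (0.39, adjusted p = 0.00354), BBS2 (0.32, adjusted p = 0.00153) and TCTN3 (0.29, adjusted p = 0.00302) were higher with siRNA 2. These 17 calls were kept with every array left out. DNAH6 differed by -0.70 (adjusted p = 0.0103) and DYNC2LI1 by -0.38 (adjusted p = 0.0119). The other 3 probe sets of DNAH6 gave -0.47, -0.98 and -0.78, all called.

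The remaining 9 calls of siRNA 2 minus siRNA 1 were DNAL1 (0.68, adjusted p = 0.0295), BBS5 (0.36, adjusted p = 0.0110), IFT57 (0.28, adjusted p = 0.0211) and TCTN1 (0.25, adjusted p = 0.00823), higher with siRNA 2, and IFT122 (-0.26), IFT43 (-0.28), DYNC2I1 (-0.26), IFT46 (-0.19) and DNAH8 (-0.19), lower. These calls and those of DNAH6 and DYNC2LI1 rested on single arrays, and were lost without siRNA 1 replicate 1 or siRNA 2 replicate 1 for DNAH6 (adjusted p = 0.0592 to 0.0684), DYNC2LI1 (adjusted p = 0.0692 to 0.0755) and IFT122 (adjusted p = 0.0510 to 0.0641). They were also lost without siRNA 1 replicate 2 or siRNA 2 replicate 2 for DNAL1 (adjusted p = 0.169 to 0.176), and without either siRNA 1 array or siRNA 2 replicate 2 for BBS5 (adjusted p = 0.0539 to 0.0680) and IFT57 (adjusted p = 0.0811 to 0.131), and without siRNA 1 replicate 2 for TCTN1 (adjusted p = 0.0600). The rest were lost without either siRNA 1 array or either siRNA 2 array for IFT43 (adjusted p = 0.0576 to 0.0826) and IFT46 (adjusted p = 0.0733 to 0.124), and without siRNA 1 replicate 1 for DYNC2I1 (adjusted p = 0.0575), and without either 10 nM control array, either siRNA 1 array, siRNA 2 replicate 2, either 100 nM control array or either PAXIP1-AS1 siRNA array for DNAH8 (adjusted p = 0.0510 to 0.237). BBS9 differed by 0.00 (95% interval -0.20 to 0.19, adjusted p = 0.993) and was not called, and IFT74 had 0.45 (95% interval 0.09 to 0.81, adjusted p = 0.0521).

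With PAXIP1-AS1 siRNA at 100 nM, BBS2, IFT46, DNAI3 and DNAH1 were lower and no gene of the 55 was higher. BBS2 read 8.77 and 8.76 with PAXIP1-AS1 siRNA and 9.20 and 9.27 in the 100 nM controls. The groups did not overlap, and the fold change was -0.47 (SE 0.0504, adjusted p = 0.00345). IFT46 read 10.54 and 10.50 with PAXIP1-AS1 siRNA and 10.79 and 10.87 in the 100 nM controls, again without overlap, with -0.31 (SE 0.0539, adjusted p = 0.0195). DNAI3, an intermediate chain of the inner arms, read 6.87 and 6.85 with PAXIP1-AS1 siRNA and 7.31 and 7.49 in the 100 nM controls. Its PAXIP1-AS1 siRNA arrays lay below the 8 other arrays, and the fold change was -0.54 (SE 0.103, adjusted p = 0.0282). With siRNA 1 and siRNA 2 it had 0.14 and 0.00, neither called. DNAH1 read 6.63 and 6.75 with PAXIP1-AS1 siRNA and 7.06 and 7.10 in the 100 nM controls, with -0.39 (SE 0.0582, adjusted p = 0.0121). BBS2 kept its call with every array left out, and the other 3 did not. Those calls were lost without either 100 nM control array or either PAXIP1-AS1 siRNA array for IFT46 (adjusted p = 0.0751 to 0.154), DNAI3 (adjusted p = 0.0777 to 0.174) and DNAH1 (adjusted p = 0.0537 to 0.103). Leaving out any 1 of these 4 arrays, or fitting the compared groups only, left 1 of the 55 called.

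IFT81, TCTN2 and DNAH6, which rose with siRNA 1, were not called with PAXIP1-AS1 siRNA. IFT81 read 7.76 and 7.83 with PAXIP1-AS1 siRNA and 7.75 and 7.81 in the 100 nM controls, a fold change of 0.02 (95% interval -0.18 to 0.21, adjusted p = 0.955). TCTN2 read 9.59 and 9.68 with PAXIP1-AS1 siRNA and 9.56 and 9.62 in the 100 nM controls, with 0.04 (95% interval -0.09 to 0.18, adjusted p = 0.776). DNAH6 read 6.64 and 6.60 with PAXIP1-AS1 siRNA and 6.66 and 6.70 in the 100 nM controls, with -0.06 (95% interval -0.44 to 0.32, adjusted p = 0.902). The groups overlapped for IFT81 and TCTN2, and those of DNAH6 were apart by less than its siRNA 1 arrays differed from each other. BBS4 read 9.12 and 9.11 with PAXIP1-AS1 siRNA and 9.28 and 9.43 in the 100 nM controls, with -0.24 (95% interval -0.42 to -0.06, adjusted p = 0.148), its groups apart but not called. IFT74 (-0.21), BBS1 (-0.12), BBS7 (-0.03), DYNC2LI1 (-0.08), DNAH7 (-0.07), DNAH11 (0.07) and DNAI7 (-0.06) were not called. DNAL4, lower with both LOC440173 siRNAs, had -0.29 (adjusted p = 0.0592).

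The effect of PAXIP1-AS1 siRNA on its control was then set against the effect of each LOC440173 siRNA on its own, which compares targets at different doses. Minus the siRNA 1 effect, 19 of the 55 differed (16.8% of all genes), 2 higher (11.0%) and 17 lower (5.82%), with a median of -0.27 against -0.05. DNAH6 differed by -1.26 (SE 0.230, adjusted p = 0.00889), IFT46 by -0.84 (SE 0.0762, adjusted p = 0.000422), TCTN2 by -0.78 (SE 0.0809, adjusted p = 0.000736) and IFT81 by -0.67 (SE 0.119, adjusted p = 0.00814). Minus the siRNA 2 effect, 10 differed (17.2% of all genes), 3 higher (11.2%) and 7 lower (6.04%), with a median of -0.13 against -0.02. DNAH11 differed by 0.71 (SE 0.109, adjusted p = 0.00383), IFT46 by -0.66 (SE 0.0762, adjusted p = 0.00112) and BBS4 by -0.94 (SE 0.112, adjusted p = 0.00123). These 7 named differences were kept with every array left out. The first count was 9 without siRNA 1 replicate 2, 10 without siRNA 1 replicate 1, 100 nM control replicate 2 or PAXIP1-AS1 siRNA replicate 2, and 11 without PAXIP1-AS1 siRNA replicate 1. The second was 6 without siRNA 2 replicate 2 or 100 nM control replicate 2, and 5 without either PAXIP1-AS1 siRNA array. BBS2, lower with both siRNA 1 and PAXIP1-AS1 siRNA, differed by -0.12 (95% interval -0.29 to 0.04, adjusted p = 0.275) between them. The 2 control groups, 100 nM against 10 nM, differed in 0 of the 55 genes (0% of all genes, by limma), with 0 of the 55 at an unadjusted p below 0.05 (692 of all 18404 genes).

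The motor that pulls IFT-B outward was lower with siRNA 2 in its motor subunits and higher in its adaptor. This and the following comparisons used lists of other known cilium genes, and the genes named are the called ones with the smallest p-values in a list whose calls were kept with every array left out. The percentage beside each count is the share of the list called. For all genes it was 28.8% with siRNA 1 and 30.0% with siRNA 2, with 43.8% and 47.1% of those at or above the median level and 13.8% and 12.8% of those below it. With PAXIP1-AS1 siRNA it was 4.62% of all genes, 7.84% of those at or above the median level and 1.40% of those below it. The 5 kinesin-2 genes had 0 called higher and 1 lower (20.0%, median -0.18) with siRNA 1, and 1 called higher and 2 lower (60.0%, median -0.16) with siRNA 2. KIF3B read 7.87 and 7.85 with siRNA 2 and 8.64 and 8.74 in the 10 nM controls, a fold change of -0.83 (adjusted p = 3.66e-05), and its motor partner KIF3A had -0.62 (adjusted p = 0.00443) with siRNA 2. KIFAP3, the adaptor of the same motor, had 0.74 (adjusted p = 0.000188) with siRNA 2. The 2 IFT-B genes under other symbols had 0 called higher and 1 lower (50.0%, median -0.26) with siRNA 1, and 0 called higher and 1 lower (50.0%, median -0.09) with siRNA 2. TRAF3IP1, the IFT-B2 subunit also called IFT54, had -0.42 (adjusted p = 0.00212) with siRNA 1. The 11 BBSome partners and traffic GTPases had 2 called higher and 3 lower (45.5%, median 0.04) with siRNA 1, and 3 called higher and 3 lower (54.5%, median -0.11) with siRNA 2. LZTFL1, which restrains BBSome entry, had 0.78 (adjusted p = 0.000996) with siRNA 1. RAB8B, a GTPase of membrane traffic, had 0.69 (adjusted p = 0.000657) with siRNA 1, -0.78 (adjusted p = 0.000299) with siRNA 2 and 0.88 (adjusted p = 0.00208) with PAXIP1-AS1 siRNA. The RAB8 activator RAB3IP had -0.61 (adjusted p = 0.000166) with siRNA 1. A further call, lost without at least 1 array, was that of TRAF3IP1 (-0.28 with siRNA 2, adjusted p = 0.0134).

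At the gate and the basal body, the largest called changes in these lists came with siRNA 2. The 19 further transition zone genes had 5 called higher and 5 lower (52.6%, median 0.07) with siRNA 1, and 3 called higher and 6 lower (47.4%, median 0.00) with siRNA 2. CC2D2A, a partner of the tectonics at the gate, read 7.16 and 7.16 with siRNA 1, 5.77 and 5.83 with siRNA 2 and 7.42 and 7.46 in the 10 nM controls. Both siRNA groups lay below the controls, siRNA 2 furthest, with -0.28 (adjusted p = 0.00500) for siRNA 1 and -1.64 (adjusted p = 2.31e-06) for siRNA 2. ANKS6 had -0.81 (adjusted p = 0.000102) with siRNA 1, and TMEM216 had -0.77 (adjusted p = 0.000357) with siRNA 2. TMEM237 was higher with siRNA 2, at 0.38 (adjusted p = 0.00241). The 15 basal body and centriole genes had 7 called higher and 2 lower (60.0%, median 0.18) with siRNA 1, and 3 called higher and 5 lower (53.3%, median -0.10) with siRNA 2. CCP110, which caps the centriole before a cilium grows, read 8.52 and 8.74 with siRNA 2 and 9.73 and 9.91 in the 10 nM controls, a fold change of -1.18 (adjusted p = 5.88e-05), and its partner CEP97 had 0.45 (adjusted p = 0.000421). CEP41 had -1.01 (adjusted p = 0.000146) with siRNA 2, and CEP164, of the distal appendages, had 0.34 (adjusted p = 0.00212) with siRNA 1. The 8 membrane cargo factors had 2 called higher and 2 lower (50.0%, median 0.02) with siRNA 1, and 4 called higher and 3 lower (87.5%, median 0.17) with siRNA 2. RP2 had 0.70 (adjusted p = 0.000189) and UNC119 -0.57 (adjusted p = 0.000544) with siRNA 2, and TUB had -0.65 (adjusted p = 0.000280) with siRNA 1 and -0.35 (adjusted p = 0.00498) with siRNA 2. TULP3 had -0.29 (adjusted p = 0.00777) with siRNA 2. CCP110, TMEM216 and TULP3 were called in the opposite direction with siRNA 1. The further calls of these genes were each lost without at least 1 array. With siRNA 1 they were CCP110 (0.39, adjusted p = 0.0135), TMEM216 (0.36, adjusted p = 0.0142) and CEP41 (-0.36, adjusted p = 0.0225). Also with siRNA 1 were CEP97 (0.18, adjusted p = 0.0321), RP2 (0.25, adjusted p = 0.0280) and TULP3 (0.25, adjusted p = 0.0174). With siRNA 2 it was ANKS6 (-0.22, adjusted p = 0.0389). With PAXIP1-AS1 siRNA they were RP2 (0.33, adjusted p = 0.0352) and TULP3 (-0.31, adjusted p = 0.0304).

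The 17 assembly and docking factors of axonemal dynein had 3 called higher and 1 lower (23.5%, median 0.15) with siRNA 1, and 1 called higher and 1 lower (11.8%, median 0.03) with siRNA 2. DNAAF9 had -0.46 (adjusted p = 0.000672) with siRNA 1. The 16 radial spoke, nexin link and central pair genes had 5 called higher and 0 lower (31.2%, median 0.15) with siRNA 1, and 0 called higher and 1 lower (6.25%, median 0.05) with siRNA 2. Among them CFAP206 had 0.60 (adjusted p = 0.000534) with siRNA 1, and CFAP20 had -0.25 (adjusted p = 0.00583) with siRNA 2. The 12 genes of cytoplasmic dynein 1 and the shared light chains had 1 called higher and 3 lower (33.3%, median -0.10) with siRNA 1, and 1 called higher and 2 lower (25.0%, median 0.01) with siRNA 2. The light chain DYNLL1, which dynein-2 also uses, read 11.26 and 11.16 with siRNA 1 and 12.10 and 12.36 in the 10 nM controls. Its fold change was -1.02 (adjusted p = 0.000192), and DYNLL2 had 0.49 (adjusted p = 0.000911) with siRNA 2. With siRNA 1, DYNC1LI2 had 0.38 (adjusted p = 0.00240) and DYNLT3 had -0.355 (adjusted p = 0.00685). The 10 ciliogenesis transcription factors had 0 called higher and 2 lower (20.0%, median 0.02) with siRNA 1, and 3 called higher and 2 lower (50.0%, median -0.02) with siRNA 2. MYB, known for multiciliogenesis, had -1.11 (adjusted p = 0.000448) with siRNA 1 and -0.80 (adjusted p = 0.00185) with siRNA 2. The 14 Hedgehog pathway genes, whose pathway signals through the primary cilium, had 2 called higher and 5 lower (50.0%, median -0.12) with siRNA 1, and 3 called higher and 1 lower (28.6%, median 0.05) with siRNA 2. The receptor PTCH1, itself a target of the pathway, had 0.55 (adjusted p = 0.000545) with siRNA 2. EVC and the co-receptor CDON had -0.50 (adjusted p = 0.000219) and -0.39 (adjusted p = 0.000523) with siRNA 1. With PAXIP1-AS1 siRNA the Hedgehog genes had 2 called higher and 1 lower (21.4%, against 4.62% of all genes, median 0.01). HHIP, an antagonist of Hedgehog ligands, had 0.84 (adjusted p = 0.00345). Calls of these genes that were lost without at least 1 array were DNAAF9 (-0.18 with siRNA 2, adjusted p = 0.0410), PTCH1 (0.21 with siRNA 1, adjusted p = 0.0470), EVC (0.18 with siRNA 2, adjusted p = 0.0239), EVC (-0.37 with PAXIP1-AS1 siRNA, adjusted p = 0.00711), CDON (0.15 with siRNA 2, adjusted p = 0.0359) and CDON (0.34 with PAXIP1-AS1 siRNA, adjusted p = 0.00792). With PAXIP1-AS1 siRNA the 8 membrane cargo factors had 1 called higher and 1 lower (25.0%). The 11 BBSome partners and traffic GTPases also had 1 and 1 (18.2%), and the 3 IFT-A subunits under other symbols 1 and 0 (33.3%). No gene of the transition zone, basal body, kinesin-2, dynein 1, axonemal, transcription factor or further IFT-B lists was called with PAXIP1-AS1 siRNA. At the 4.62% of all genes called there, lists of this size would hold few calls.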

How the data were processed

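Arrays of 10 HEK-293 samples in 5 groups of 2 were compared. The authors deposited log2 expression values made with RMA, per the submitters' processing notes, which also name limma. For the array definition, genome build and filters, nothing is given in the sources used here. RMA puts all arrays on 1 distribution, so a difference is relative to the bulk of probe sets on an array. Of 32321 probe sets, 19158 carried 1 gene symbol in the platform annotation, 1388 several and 11775 none, and the last 2 kinds were not used. The 19158 stood for 18404 genes (637 with several probe sets), each by its probe set with the highest mean. All 55 symbols were the same in RefSeq.

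Here limma 3.58.1 (R 4.3.3) fitted 1 mean per group to the deposited log2 values of all 10 arrays, with Benjamini-Hochberg adjustment over 18404 genes (5 residual and 2.87 prior degrees of freedom). The fit was also run on 10 simulated data sets with 200 changed genes in 1 group and independent noise. These sets held far fewer changed genes than were called here, so that run does not bear on the calls reported. The number of arrays limits the precision. Genes with a change of at least 0.5 were described in full, smaller called ones named with their fold change, and up to 4 called genes with the smallest p-values taken per list. Of these, cilium genes with no call kept under each array left out are counted only, apart from RFX7. The members and lists were chosen with earlier results of these data known. The 16 alternatives were a further quantile normalization over all probe sets, the mean of a gene's probe sets, leaving out genes below the median level, only the compared groups, an intensity trend with a robust prior, a replicate block, and each array left out. Promoter windows of 49 genes came from RefSeq on GRCh38.p14.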

Additional observations from a re-analysis of the deposited data

Results flagged for a closer look

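The 2 siRNAs against LOC440173 moved 4 of the 55 genes in opposite directions, each called against the same 10 nM controls. Of all genes, 28.8% were called with siRNA 1, 30.0% with siRNA 2 and 37.1% between them. The share of all genes called in opposite directions is not given here, so these 4 genes cannot be set against it. Because the genes are picked for opposite calls, the difference of siRNA 2 minus siRNA 1 follows from the choice and is given as a description. IFT22 had -0.33 with siRNA 2 and 0.19 with siRNA 1, a difference of -0.523. IFT27 had -0.22 with siRNA 2 and 0.27 with siRNA 1, a difference of -0.491. IFT56 had -0.21 with siRNA 2 and 0.47 with siRNA 1, a difference of -0.684. TCTN2 had -0.40 with siRNA 2 and 0.82 with siRNA 1, a difference of -1.227. Of the 4, TCTN2 kept both calls with each array left out. IFT22 lost its siRNA 1 call without any 1 of 8 arrays (adjusted p up to 0.144) and IFT56 its siRNA 2 call without any 1 of 7 (adjusted p up to 0.182). IFT27 lost its siRNA 1 call without siRNA 1 replicate 2 (adjusted p = 0.0715) and its siRNA 2 call without any 1 of 3 arrays (adjusted p up to 0.0812). When only the compared groups were fitted, TCTN2 again was the 1 gene of the 4 with both calls. The remaining level of LOC440173 differed between the siRNAs, at 27.0% of control with siRNA 2 and 51.4% with siRNA 1, and its part in these differences was not tested.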

How the results depend on the processing

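No called fold change reversed under the 16 alternatives, while values near 0 that were not called, such as that of IFT122 with siRNA 2, took either sign. With 1 array left out, the number of the 55 genes called lay between 16 and 25 for siRNA 1, 10 and 18 for siRNA 2, 20 and 28 for siRNA 2 minus siRNA 1, 1 and 4 for PAXIP1-AS1 siRNA, 9 and 21 for the PAXIP1-AS1 effect minus that of siRNA 1, and 5 and 11 minus that of siRNA 2. Where this leaves 1 array in a group, that array is assumed to vary like the others. With only the compared groups the counts were 19, 6, 27, 1, 21 and 8 in the same order, for which the smaller number of arrays leaves fewer degrees of freedom. The controls differed in 0 genes throughout. No share of all genes under these settings is given beside the counts. The replicate numbers were not taken to pair the samples, since not every pair of groups correlated above 0.1: replicate differences correlated at 0.068 to 0.09 in the 4 pairs with siRNA 1 and at 0.293 to 0.529 in the 6 pairs of the other groups, a hint of shared numbering there. With the replicate number as a block, 28, 22, 32, 6, 22 and 12 genes were called in that order, and 0 between the controls. Of the fold changes of single genes, the replicate block brought 13 past the threshold and took none from it, the further quantile normalization took 7 and brought 10, and the trend and robust prior took 5 and brought 13. The mean of all probe sets changed none of them. In the fit of genes above the median level, 20 of 30 were called with siRNA 1, 17 with siRNA 2 and 6 with PAXIP1-AS1 siRNA. The probe set of DYNC2H1 not used above missed the threshold with siRNA 2. The deposited values carry no measure of background, so how far the dim axonemal dynein genes stood above it was not analysed here.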
